A study of Prunus sibirica with 30 samples.

Results

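Flowers of 2 clones of Prunus sibirica, the Siberian apricot, were compared by RNA sequencing before any time at -4 °C. Clone 453, labelled CR, is described as strongly frost resistant, and clone 371, labelled NC, as weakly resistant. The comparison used the CR 0 h libraries against the NC 0 h libraries, 3 of each, which are 6 of the 30 libraries in the series. The other 24 libraries come from flowers of the same clones chilled at -4 °C for times between 15 min and 2 h, and they were used to see whether a difference between the clones was also present later. Both 0 h groups are flowers in bloom, with the pistil as the labelled tissue, although the extraction text speaks of whole flowers and buds. Each type is represented by a single clone, so frost resistance cannot be told apart from any other difference between these clones, and nothing in the labels says that replicates are different trees.

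All 143 complete genes of the deposited table were compared. They are abundant transcripts, with levels of 342 to 5919 FPKM at 0 h (fragments scaled to gene length and library size, so a share of the library and not an absolute amount). Every gene had a mean over all libraries of at least 594 FPKM, so a gene low in a clone is present only with higher values elsewhere. This holds, among others, for ubiquitin-like protein 5 and elongation factor 1-alpha on chromosome 1, whose NC libraries at 0 h all lay under that value. The same is true of translation machinery-associated protein 7 and the ATP synthase 6 kDa subunit. For both S-adenosylmethionine decarboxylase genes it was the CR libraries at 0 h that all lay under it. Such genes are in the table only through the libraries where they are higher, which limits what their clone differences show. Shares of genes called therefore describe this set of abundant genes alone. The list holds 26 proteins of the small (40S) and 43 of the large (60S) ribosomal subunit, 10 histones and high mobility group proteins, 9 photosynthesis proteins and 5 aquaporins. Transcription factors of the cold response were not analysed here. Pistils are among the floral parts that spring frost kills most readily, and a plant that has not yet met the cold can differ from another in its standing levels of water channels, membrane and cell wall proteins, methylation and polyamine enzymes or protein synthesis. Aquaporins pass water through membranes, S-adenosylmethionine is the methyl donor and also the source of polyamines, and ribosomal proteins are made in step with growth. Of the marker lists, 8 green tissue genes were present, with 1 pollen gene (Olee1-like protein), 1 pistil gene (non-classical arabinogalactan protein 31) and 0 petal genes, so the table holds little that could check the labelled tissue.

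The 143 genes stood at a higher general level in the libraries of the resistant clone, and this comes before every result. The median level of the 143 genes was 1285, 954 and 1059 FPKM in CR, against 797, 771 and 721 FPKM in NC. CR replicate 1 was the highest and lay apart from the other CR libraries, yet the groups did not overlap. The library medians differed by 0.52 on the log2 scale (SD 0.22 in CR and 0.07 in NC, n = 3 each), and the exact two-sided permutation test gave p = 0.1, which is the lower limit for groups of 3. The difference was 0.40 without CR replicate 1. Reads of the 143 genes made up 14.9% to 20.5% of the library size behind the FPKM values in CR, against 12.4% to 14.0% in NC. The shift is thus one in the share of the library that these genes held. Centring sets each gene against this same set, in which 69 genes are ribosomal. Every comparison was therefore made both on log2(FPKM + 1) and after each library was centred on its own median, and the second kind is called relative. Each 0 h value rested on 3356 to 194152 reads, so counting error was at most 1.73%, and the 143 genes together had 2281461 to 3544827 reads per library.

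Before freezing, on the log2 scale, which keeps the general level of each library, the resistant clone had more of most abundant transcripts. Ribosomal proteins were foremost, and the clone had less of a small set. That set held aspartyl protease AED3, adenosylhomocysteinase, both genes for S-adenosylmethionine decarboxylase and aquaporin PIP2-5. All 6 of its members have 1000 bases or more, and 2 were still called lower once a trend with gene length was removed, as given below. On the log2 scale 107 of 143 genes passed a limma adjusted p of 0.05 (74.8%), with 101 higher (70.6%) and 6 lower (4.2%) in CR. The median difference was 0.59 and single genes ran from -1.15 to 1.33. Relative to the library median 92 genes passed (64.3%), with 53 higher (37.1%) and 39 lower (27.3%), and the split was 63 higher and 22 lower when the median was taken outside the ribosomal genes. The CR and NC libraries of a gene did not overlap in 105 of 143 genes (73.4%), on either scale. Without CR replicate 1 the counts were 82 higher and 6 lower, or 48 and 34 relative to the median. In bulk samples, fewer cells of a type and less RNA per cell cannot be told apart.

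Gene length went together with the clone difference. Genes under 700 bases had a median log2 difference of 0.87, those of 700 to just below 1000 bases 0.67, and those of 1000 bases or more 0.19. Of the 45 shortest genes 29 were higher and 0 lower in CR relative to the median, while of the 56 longest 3 were higher and 33 lower. The relation was present among ribosomal proteins (Pearson r = -0.65 with log2 length, 69 genes) and among other genes (r = -0.60, 74 genes), where the points share their 6 libraries and are not independent. Set against the gene means over all libraries, the slopes per doubling of length were -0.33, -0.16 and -0.26 in the CR libraries, against 0.19, 0.25 and 0.22 in the NC libraries. All 3 CR libraries thus held relatively less of long genes and all 3 NC libraries relatively more, and the cause was not tested. When each library's length slope was taken out, 112 genes passed as higher and 2 as lower, with 34 and 27 relative to the median. Of the 53 and 39 genes called relative to the median, 27 and 16 were also called in the same direction after that step.

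**Figure D1:**
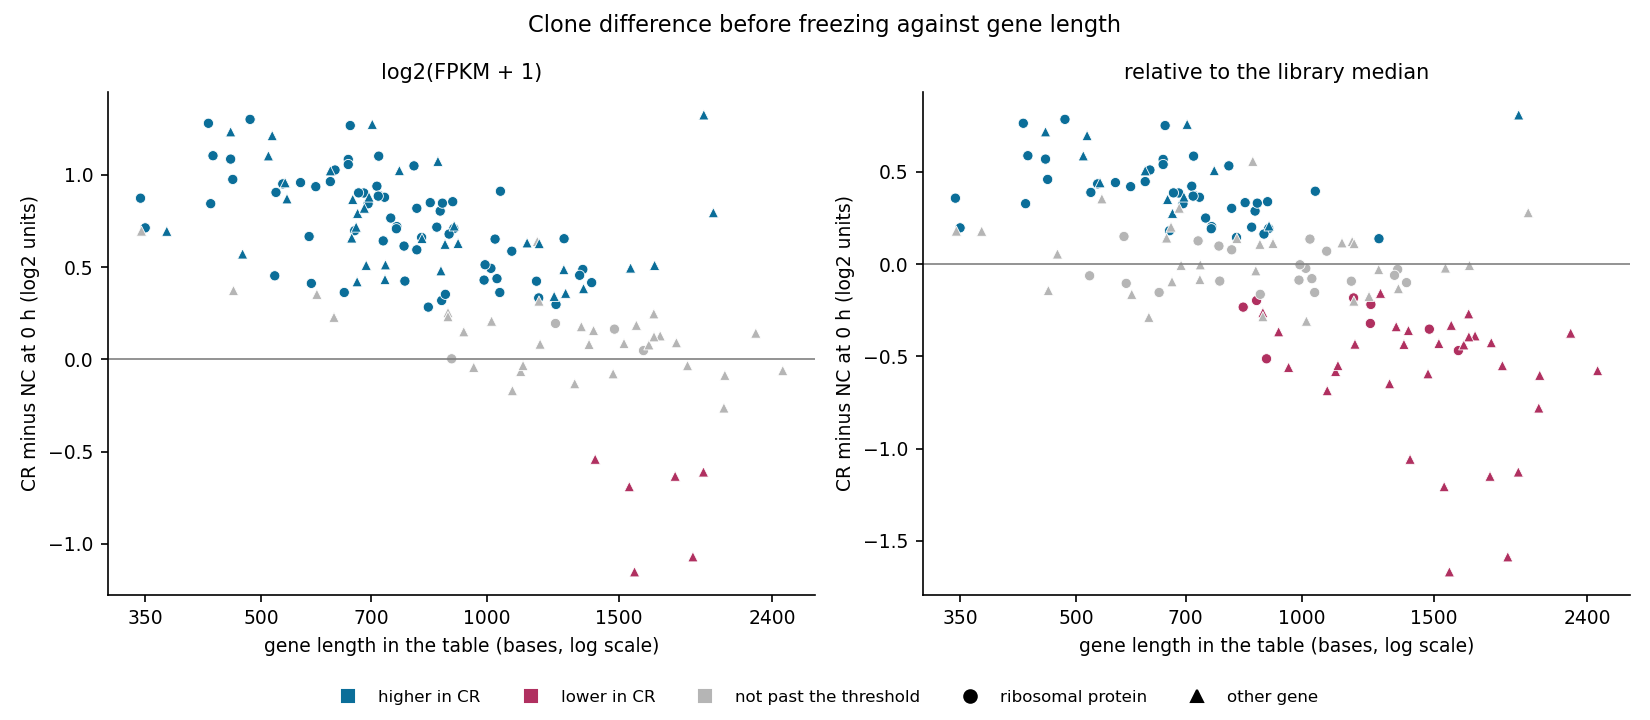
Difference between the clones at 0 h (CR minus NC, log2 units) against gene length in bases on a log scale, 1 point per gene for 143 genes, as log2(FPKM + 1) on the left and relative to the library median on the right, with circles for ribosomal proteins, triangles for other genes and colour for the limma call. Genes of 1000 bases or more hold all 6 genes lower in CR on the left and 33 of the 39 lower on the right.

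The aspartyl protease AED3, a secreted protease known in Arabidopsis from the response to pathogens, had the most negative difference between CR and NC of all 143 genes. AED3 (PaF106G0200007260.01, chromosome 2, 4037081 to 4039588, where the sources used here name no build) stood at 668, 640 and 681 FPKM in CR, against 1566, 1482 and 1379 FPKM in NC. All CR libraries lay under the lowest NC library, and they varied little among themselves. The difference was -1.15 (SE 0.12, limma adjusted p = 9.66e-09), or -1.67 relative to the median. With the length slope removed it was -0.77 and still past the threshold (adjusted p = 5.52e-06).

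The methyl cycle enzyme and the polyamine enzyme were also lower in the resistant clone, in all 3 genes of that list. Adenosylhomocysteinase, which clears the by-product of methylation reactions (PaF106G0100001906.01, chromosome 1, 12656257 to 12658231), was at 657, 685 and 751 FPKM in CR, against 1202, 1120 and 1056 FPKM in NC. The groups were far apart and the difference was -0.69 (SE 0.11, limma adjusted p = 2.69e-06). S-adenosylmethionine decarboxylase supplies the aminopropyl groups of spermidine and spermine. Its gene on chromosome 3 (PaF106G0300011722.01, 20154855 to 20157115) was at 453, 480 and 493 FPKM in CR, against 719, 778 and 716 FPKM in NC. The gene on chromosome 1 (PaF106G0100003565.01, 25259309 to 25262021) was at 470, 508 and 525 FPKM in CR, against 760, 811 and 726 FPKM in NC. In both genes the CR libraries all lay lower, by a log2 difference of -0.63 (SE 0.12, limma adjusted p = 5.45e-05) and -0.61 (SE 0.11, adjusted p = 1.91e-05). The ratio of these 2 genes to each other was close to the same in all 6 libraries, with a mean log2 ratio of -0.08 in CR and -0.05 in NC. The list's median difference was -0.63, against 0.59 over all genes, and -1.15 relative to the median, against 0.08. These are long genes of 1548 to 1944 bases. With the length slope removed adenosylhomocysteinase was still lower (-0.32, adjusted p = 0.00716), the decarboxylase genes had -0.16 and -0.08 and did not pass on the log2 scale, and all 3 stayed lower relative to the median (-0.87, -0.71 and -0.63).

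**Figure D2:**
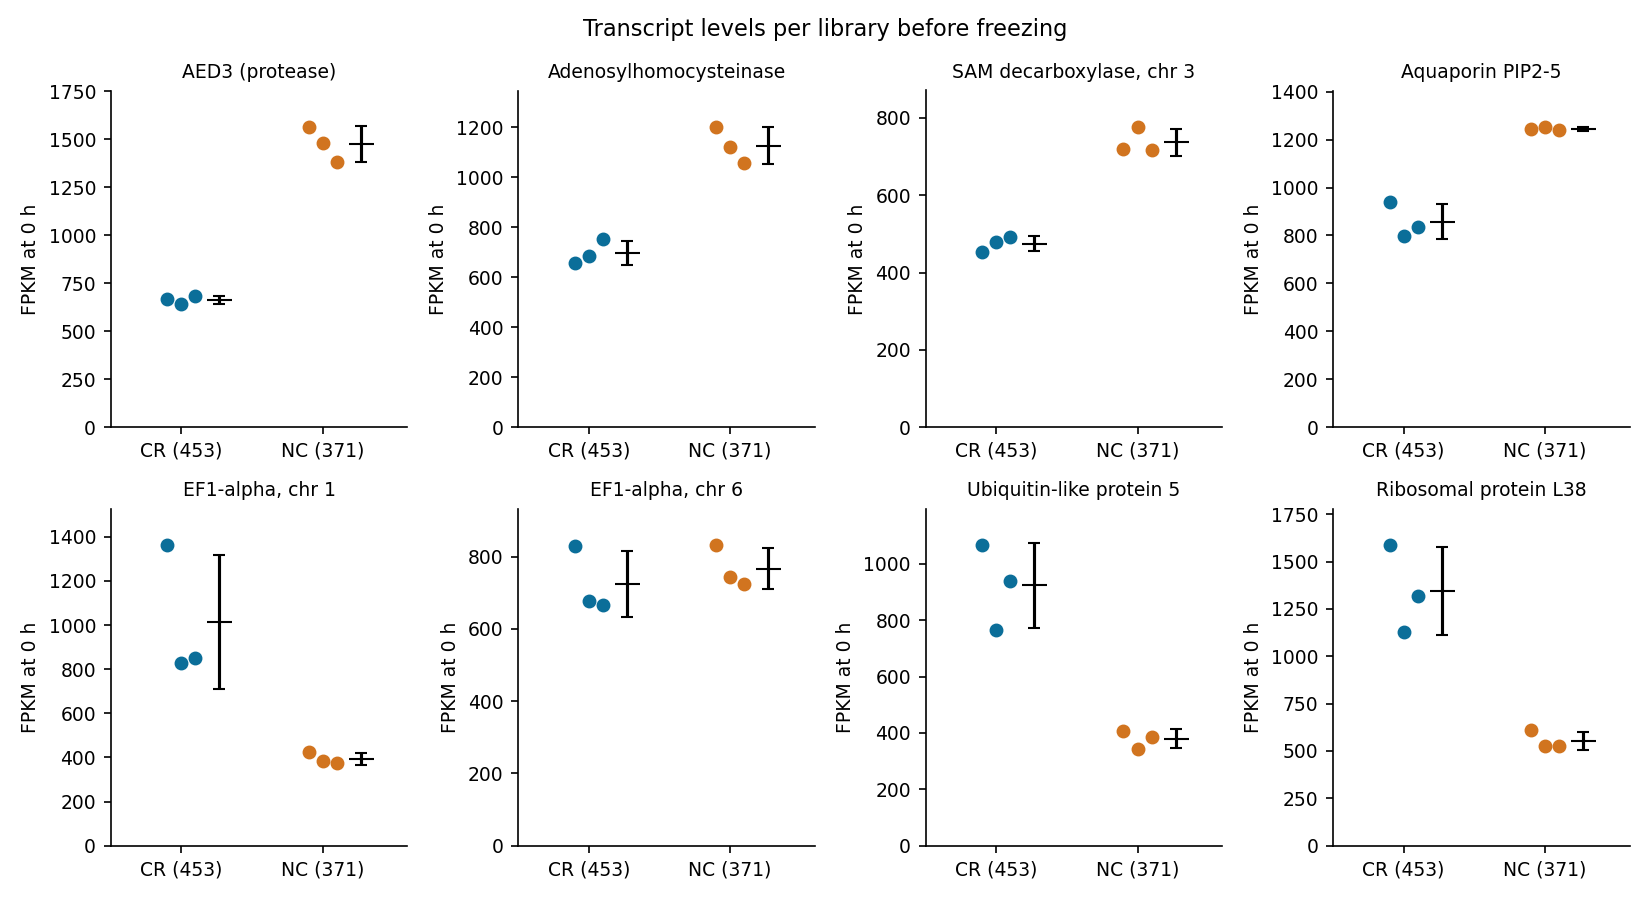
FPKM in each 0 h library for 8 genes, with CR (clone 453) left of NC (clone 371) in each panel, and mean ± SD of 3 libraries beside the points. AED3, adenosylhomocysteinase, S-adenosylmethionine decarboxylase and PIP2-5 lie lower in every CR library, EF1-alpha on chromosome 1, ubiquitin-like protein 5 and L38 lie higher in every CR library, and EF1-alpha on chromosome 6 overlaps.

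Of the 5 water channels 1 was lower and 1 higher in the resistant clone on the log2 scale, and all 5 were lower relative to the library median, where 27.3% of all genes were. PIP2-5, a plasma membrane aquaporin (PaF106G0200009516.01, chromosome 2, 21257413 to 21260728), was at 941, 798 and 834 FPKM in CR, against 1243, 1254 and 1239 FPKM in NC. The CR libraries were all lower, and the NC libraries lay close together. The difference was -0.54 (SE 0.13, limma adjusted p = 0.000401), and -0.24 with the length slope removed (adjusted p = 0.093). PIP2-7 averaged 899 ± 179 FPKM in CR and 694 ± 57.4 FPKM in NC (SD, n = 3 each). It was higher on the log2 scale (0.36, limma adjusted p = 0.0248), but did not pass without CR replicate 1 (0.21, adjusted p = 0.221). PIP1-4, PIP1-2 and the vacuolar TIP1-1 overlapped between the clones, with log2 differences of -0.04, 0.09 and -0.03 that did not pass, though PIP1-2 did with the length slope removed (0.45, adjusted p = 0.00332). On the relative scale the list median was -0.55, against 0.08 over all genes, with PIP2-5 at -1.06. The call for PIP2-7 lay at the threshold (-0.16, adjusted p = 0.05), and it did not pass when the median was taken outside the ribosomal genes (-0.01, adjusted p = 0.955), where the other 4 did. With the length slope removed 3 of the 5 were lower relative to the median, against 27 of all 143 genes: PIP2-5 (-0.79), PIP1-4 (-0.55) and TIP1-1 (-0.43).

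The sixth gene lower in CR carries the name of a yeast reading frame, Putative uncharacterized protein ART3, whose other name in the deposited description is antisense to ribosomal RNA transcript protein 3 (PaF106G0500019452.01, chromosome 5, 7804224 to 7808425). It stood at 584, 625 and 471 FPKM in CR, against 997, 1227 and 1305 FPKM in NC. The groups did not overlap, and the difference was -1.07 with a large error (SE 0.37, limma adjusted p = 0.0119). With the length slope removed it was -0.56 and did not pass (adjusted p = 0.177), while relative to the median it stayed lower (-1.11).

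Proteins of the translation machinery made up most of the genes with more transcript in the resistant clone. Of the 26 small-subunit genes 25 were higher and 0 lower (median 0.70), and of the 43 large-subunit genes 40 were higher and 0 lower (median 0.72), against 70.6% higher over all 143 genes. On the relative scale 15 of 26 and 26 of 43 were higher, 2 and 6 were lower, and the list medians were 0.19 and 0.20, against 37.1% higher, 27.3% lower and a median of 0.08 over all genes. Once the length slope was removed too, 8 of 26 and 19 of 43 were higher and 3 and 6 lower, with list medians of 0.06 and 0.12, against 34 higher, 27 lower and a median of 0.03 over all 143 genes. Ribosomal proteins held 49.7%, 49.7% and 49.9% of the summed FPKM of the 143 genes in CR, against 45.2%, 42.7% and 44.1% in NC. This share was nearly the same in the 3 CR libraries, CR replicate 1 included, and did not overlap with NC. It was taken with the length slope kept. The median length was 775 bases for ribosomal proteins and 1113 bases for the other genes.

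Single ribosomal proteins ranged widely within the ribosome, from 0.00 to 1.30 on the log2 scale. The acidic stalk protein P3-1 (PaF106G0100000946.01, chromosome 1, 6039533 to 6040627), part of the site where elongation factors bind, was at 1930, 1227 and 1444 FPKM in CR, against 719, 601 and 528 FPKM in NC. L39 (PaF106G0700026047.01, chromosome 7, 21724635 to 21725225), which lines the tunnel through which the new chain leaves, was at 1637, 1118 and 1257 FPKM in CR, against 640, 492 and 509 FPKM in NC. L38 (PaF106G0100002305.01, chromosome 1, 16008809 to 16010893) was at 1587, 1126 and 1318 FPKM in CR, against 608, 525 and 528 FPKM in NC. In each of these 3 genes the lowest CR library was well above the highest NC library. Their differences were 1.30, 1.28 and 1.27 (SE 0.20, 0.15 and 0.13), with limma adjusted p of 3.32e-06, 6.31e-08 and 1.3e-08. L36-1 and S29 (PaF106G0800030893.01) followed at 1.10 each. All of these are short genes of 425 to 717 bases, and with the length slope removed they were still higher on the log2 scale, from 0.60 for S29 to 1.05 for L38. On the relative scale and with the slope removed, L38 (0.51), L36-1 (0.40), P3-1 (0.33) and L39 (0.22) stayed higher, and S29 did not pass (0.05, adjusted p = 0.689).

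At the other end, 4 ribosomal proteins did not pass on the log2 scale: S4 (0.16), L5-2 (0.19), L3 (0.05) and the L10 gene on chromosome 8 (0.00). L3, at the peptidyl transferase centre, had 980 ± 51.2 FPKM in CR and 949 ± 67.9 FPKM in NC, and L10 on chromosome 8 had 741 ± 101 FPKM in CR and 738 ± 80.9 FPKM in NC (SD, n = 3 each). Both groups overlapped in these genes. After centring, L10 on chromosome 8 (-0.51), L3 (-0.47), S4 (-0.35) and L5-2 (-0.32) were lower in CR. L3, S4 and L5-2 are long for ribosomal proteins, and with the length slope removed their relative values of -0.10, -0.04 and -0.14 did not pass, while L10 on chromosome 8 stayed lower (-0.55, limma adjusted p = 1.4e-05).

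Outside the ribosome, elongation factor 1-alpha, which brings aminoacyl-tRNA to the ribosome, had the highest difference of all 143 genes, in 1 of its 2 genes. The gene on chromosome 1 (PaF106G0100000142.01, 874033 to 877141) was at 1363, 830 and 851 FPKM in CR, against 426, 382 and 375 FPKM in NC. CR replicate 1 was far above the other CR libraries, and the lowest CR library was still far above the highest NC library in the plot of levels per library. The difference was 1.33, a 2.51-fold higher level (SE 0.17, limma adjusted p = 2.91e-07), and 1.09 without CR replicate 1. With 1946 bases it is one of the longest genes, and removing the length slope made the difference larger, at 1.86. Translation machinery-associated protein 7 was higher too, at 1114, 731 and 903 FPKM in CR, against 461, 416 and 455 FPKM in NC (1.02, SE 0.18, limma adjusted p = 1.15e-05). The translationally-controlled tumor protein homolog, a growth-related protein, was higher by 0.79 (adjusted p = 6.01e-05), while the guanine nucleotide-binding protein subunit beta-like protein, a scaffold on the small subunit, did not pass (0.16, adjusted p = 0.34), except with the length slope removed (0.45, adjusted p = 0.0081). Relative to the median with the length slope removed, translation machinery-associated protein 7 did not pass. The tumor protein homolog did not pass there either (0.05, limma adjusted p = 0.745).

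**Figure D3:**
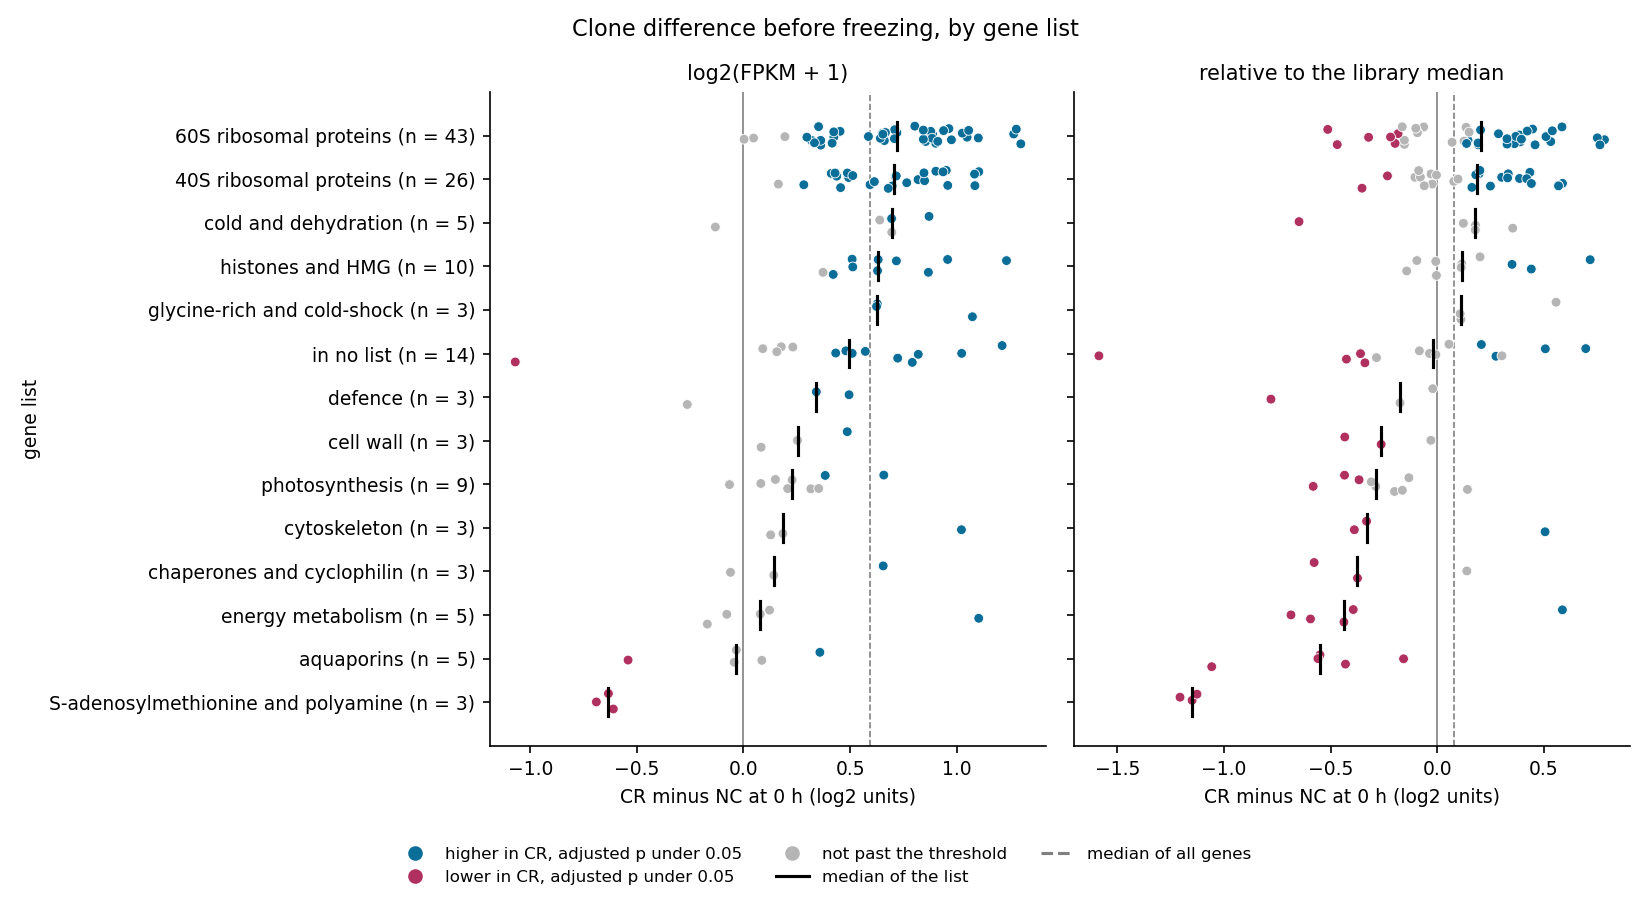
Difference between the clones at 0 h (CR minus NC, log2 units) for every gene of the lists with 3 or more members, as log2(FPKM + 1) on the left and relative to the library median on the right, with points coloured by limma call, black bars for list medians and a dashed line for the median of all 143 genes. Ribosomal proteins have list medians of 0.70 and 0.72 on the left, and the aquaporins and the S-adenosylmethionine list lie lowest in both panels.

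Chromatin proteins were higher in the resistant clone in 9 of 10 genes, against 70.6% of all genes, and the list median of 0.63 was close to that of all genes (0.59). After centring 3 of 10 were higher, against 37.1% of all genes, and 0 lower. Removing the length slope as well left 1 higher and 2 lower. Histone H4, a core histone made mainly in dividing cells, had 3 genes with unlike values. The gene on chromosome 2 (PaF106G0200009755.01, 22446210 to 22446664) was at 2227, 1109 and 1308 FPKM in CR, against 796, 527 and 591 FPKM in NC, without overlap (1.23, SE 0.21, limma adjusted p = 1.3e-05). Of the genes on chromosome 6, the one at 5375595 to 5376132 was higher (0.96, adjusted p = 0.000235). The other, at 23183579 to 23184037, was at 1622, 944 and 982 FPKM in CR, against 1003, 840 and 821 FPKM in NC, overlapped and did not pass (0.37, adjusted p = 0.0925). Histone H2A.1 (0.87), H3.2 (0.72), H3.3 (0.63), H2A (0.63), the linker histone H1.2 (0.51) and both genes for high mobility group B protein 2 (0.51 and 0.42) were higher.

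Photosynthesis genes, all but 1 of them also the green tissue markers, had a list median of 0.23, against 0.59 over all genes. CR had more of 2 of the 9, against 70.6% of all genes, and less of 0. These were photosystem II 10 kDa polypeptide (0.66, limma adjusted p = 0.000684) and oxygen-evolving enhancer protein 1 (0.38, adjusted p = 0.0248), and the second did not pass without CR replicate 1 (adjusted p = 0.137). The Rubisco small chain was at 3509, 2373 and 2707 FPKM in CR, against 2234, 2528 and 2068 FPKM in NC, and overlapped (0.32, limma adjusted p = 0.182), but passed with the length slope removed (0.50, adjusted p = 0.0369). Once centred, 3 light-harvesting proteins were lower in CR: the chlorophyll a-b binding proteins of LHCII type I (-0.58), CP26 (-0.43) and 151 (-0.37), which is 3 of 9 and near the 27.3% of all genes. Without the length slope CP26 did not pass (-0.18), and CP12-1 (-0.57) and ferredoxin-1 (-0.48) did. Oxygen-evolving enhancer protein 3, CP12-1, a regulator of the Calvin cycle, and ferredoxin-1 had relative values of -0.31, -0.29 and -0.16 that did not pass with the slope kept. The summed level of the 8 green tissue markers was 10479 to 16306 FPKM in CR and 10015 to 12148 FPKM in NC, which overlapped, but as a share of the 143 genes it was 6.50% to 7.15% in CR and 7.74% to 9.25% in NC, which did not. The part of green tissue in the other results was not tested.

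Of the 5 genes of sugar and energy metabolism, 1 small subunit was higher in CR and the other 4 did not pass on the log2 scale. Malate dehydrogenase (-0.17), fructose-bisphosphate aldolase 1 (-0.08), glyceraldehyde-3-phosphate dehydrogenase GAPC2 (0.08) and enolase (0.12) overlapped between the clones and did not pass on the log2 scale. After centring each was lower in CR, by values from -0.69 for malate dehydrogenase to -0.39 for enolase, and malate dehydrogenase (-0.59) and aldolase (-0.29) stayed lower with the length slope removed, while GAPC2 (-0.06) and enolase did not pass. On the log2 scale removing that slope made 4 of the 5 genes higher in CR, with GAPC2 at 0.49 (limma adjusted p = 0.000466), enolase at 0.55 (adjusted p = 0.000628) and aldolase turned to 0.26 (adjusted p = 0.0428). The ATP synthase 6 kDa subunit of mitochondria (PaF106G0600022340.01, chromosome 6, 5371643 to 5373467) was at 1290, 822 and 971 FPKM in CR, against 517, 458 and 438 FPKM in NC. The groups were well apart and the difference was 1.10 (SE 0.13, limma adjusted p = 4.66e-08). Its relative difference was 0.59, and 0.17 with the length slope removed (adjusted p = 0.102), at a gene length of 511 bases.

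Among chaperones and the cytoskeleton, 1 of 3 genes of each list was higher in CR on the log2 scale, and 3 of 3 of each were once the length slope was removed. Heat shock protein 90-2 was at 764, 641 and 625 FPKM in CR, against 745, 692 and 673 FPKM in NC, and heat shock cognate 70 kDa protein at 965, 821 and 839 FPKM in CR, against 868, 771 and 738 FPKM in NC. Both overlapped and did not pass (-0.06 and 0.14, limma adjusted p = 0.655 and 0.356). After centring both were lower (-0.58 and -0.37), but with the length slope also removed the direction turned, to 0.09 (adjusted p = 0.339) and 0.23 (adjusted p = 0.0392). Tubulin alpha (0.13) and tubulin beta-1 (0.18) did not pass either, and their relative differences of -0.39 and -0.33 were 0.02 each with the slope removed. On the log2 scale the values with the slope removed were 0.78 for heat shock cognate 70 kDa protein, 0.64 for heat shock protein 90-2 and 0.57 for each tubulin, all past the threshold. Peptidyl-prolyl cis-trans isomerase, a folding helper, was higher on the log2 scale at 5224, 3376 and 3852 FPKM in CR, against 2936, 2575 and 2300 FPKM in NC (0.66, limma adjusted p = 0.000269), and did not pass relative to the median (0.14). SPIRAL1-like 1, which binds microtubules, was at 1721, 1179 and 1403 FPKM in CR, against 777, 660 and 661 FPKM in NC. It was higher on both scales (1.02 and 0.51, limma adjusted p = 2.03e-06 and 2.97e-06), and by 0.22 relative to the median with the slope removed.

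Of the 5 genes in the cold and dehydration list, 2 were higher and 0 lower in CR, against 70.6% higher over all genes. This list took in lipid-transfer protein and metallothionein beside late embryogenesis abundant, cold-regulated and dehydration-responsive proteins, so not every member is named for cold or drought. The non-specific lipid-transfer protein 1, a carrier of cuticle lipids, was at 1381, 1023 and 1053 FPKM in CR, against 770, 548 and 576 FPKM in NC, without overlap (0.87, SE 0.17, limma adjusted p = 7.16e-05). The hydrophobic protein RCI2B, a small membrane protein induced by cold in Arabidopsis, was at 1960, 1145 and 1668 FPKM in CR, against 796, 1030 and 1077 FPKM in NC. Its groups did not overlap (0.69, adjusted p = 0.0169). Without CR replicate 1 it did not pass (0.53, adjusted p = 0.11), and with the length slope removed it was 0.10 (adjusted p = 0.735), at a gene length of 374 bases. Indole-3-acetic acid-induced protein ARG2 (0.70, adjusted p = 0.118) and the metallothionein-like protein type 2 (0.64, adjusted p = 0.0925) had CR libraries that were all higher, with large errors (SE 0.40 and 0.34), and did not pass. Metallothionein passed once the length slope was removed (0.82, adjusted p = 0.0327), and ARG2 was then 0.04 (adjusted p = 0.926). Cysteine protease RD19A overlapped (-0.13, adjusted p = 0.55) and was the only 1 of the 5 called relative to the median (-0.65, adjusted p = 0.0165), a call that was lost without CR replicate 1 (adjusted p = 0.0535) and with the length slope removed (-0.42, adjusted p = 0.155).

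The 3 glycine-rich proteins were higher in CR, without overlap between the clones, and did not pass without CR replicate 1. GRP1A, an RNA-binding protein of the circadian and cold response in Arabidopsis, was at 5301, 2871 and 2464 FPKM in CR, against 1912, 1589 and 1323 FPKM in NC. CR replicate 1 was far above every other library, though all CR libraries were above NC. The difference was 1.07 (SE 0.37, limma adjusted p = 0.00989), and 0.74 without that library (adjusted p = 0.105). Glycine-rich RNA-binding protein 2 (0.62) and glycine-rich protein 2 (0.63) passed as well, and had 0.48 and 0.44 without CR replicate 1 (adjusted p = 0.0523 and 0.0911). None of the 3 was called relative to the median, in limma (adjusted p from 0.141 to 0.547).

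On the log2 scale the defence, cell wall and pollen genes had differences from -0.26 to 0.50. Polyphenol oxidase, the enzyme of browning and the gene with the highest mean at 0 h, was at 4177, 3494 and 4032 FPKM in CR, against 4720, 5334 and 4042 FPKM in NC. The groups overlapped narrowly and the gene did not pass (-0.26, limma adjusted p = 0.0925). It was lower relative to the median (-0.78, adjusted p = 4.16e-06), and not past the threshold there once the length slope was removed (-0.24, adjusted p = 0.0715). Defensin-like protein 2 (0.50) and the thaumatin-like protein (0.34) passed on the log2 scale, but not relative to the median (-0.02 and -0.17). Without CR replicate 1 their log2 differences were 0.39 and 0.22 and did not pass (adjusted p = 0.0523 and 0.181). Xyloglucan endotransglucosylase/hydrolase protein 9, which remodels cell walls, was higher on the log2 scale (0.49, limma adjusted p = 0.000232), but did not pass relative to the median (-0.03). The arabinogalactan protein 31 (0.08) and the Olee1-like protein (0.25, adjusted p = 0.0527) did not pass, and both were lower relative to the median (-0.43 and -0.26). Olee1-like protein stayed lower without the length slope (-0.30), and arabinogalactan protein 31 did not pass (-0.28).

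Ubiquitin-like protein 5, a small modifier with a role in splicing (PaF106G0600024347.01, chromosome 6, 22184925 to 22186738), had one of the clearest differences. It stood at 1067, 767 and 939 FPKM in CR, against 409, 342 and 387 FPKM in NC. All CR libraries were far above NC, at a difference of 1.27 (SE 0.12, limma adjusted p = 4.95e-09), 0.76 relative to the median and 0.56 with the length slope also removed. Polyubiquitin, by contrast, was at 855, 678 and 664 FPKM in CR, against 738, 773 and 724 FPKM in NC, and overlapped on the log2 scale (-0.03, adjusted p = 0.844). It was lower relative to the median (-0.55, adjusted p = 0.00885), without overlap there, and higher on the log2 scale with the length slope removed (0.46, adjusted p = 0.0185), so its direction depended on the scale. Thioredoxin H-type, a redox protein, was at 1407, 952 and 1038 FPKM in CR, against 618, 622 and 580 FPKM in NC (0.88, SE 0.15, limma adjusted p = 1.15e-05). Thioredoxin was higher relative to the median (0.36), but did not pass there with the length slope removed. L-ascorbate peroxidase, which removes hydrogen peroxide, overlapped (0.25, adjusted p = 0.0513), and passed with the length slope removed (0.67, adjusted p = 5.33e-05). The histidine-containing phosphotransfer protein 1 of cytokinin signalling was at 1255, 815 and 1060 FPKM in CR, against 636, 543 and 600 FPKM in NC (0.80, SE 0.13, limma adjusted p = 1e-05). With 2004 bases it had a larger difference, 1.35, once the length slope was removed. Relative to the median it did not pass (0.28), but it did with the length slope also removed (0.80). An unnamed gene (PaF106G0200010000.01, chromosome 2, 23625600 to 23626219) was at 4515, 3056 and 2995 FPKM in CR, against 1604, 1465 and 1410 FPKM in NC (1.21, limma adjusted p = 1.15e-05). This gene of 517 bases was higher relative to the median (0.70, adjusted p = 0.000932). It did not pass there with the length slope removed (0.29, adjusted p = 0.162).

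The ratio between 2 genes of the same name within a library does not depend on the library's general level, and it set the clones apart for some families. Among 15 pairs of same-named genes, 7 had ratios that did not overlap between the clones, each with an exact two-sided permutation p of 0.1, the lower limit again, and 0.214 after Benjamini-Hochberg adjustment over the 15. For EF1-alpha the log2 ratio of the chromosome 6 gene to the chromosome 1 gene was -0.71, -0.29 and -0.35 in CR, against 0.97, 0.96 and 0.95 in NC. The more abundant gene was thus the one on chromosome 1 in every CR library and the one on chromosome 6 in every NC library. The chromosome 6 gene itself overlapped, at 831, 676 and 667 FPKM in CR, against 832, 744 and 725 FPKM in NC. Its log2 difference was -0.09 (limma adjusted p = 0.547), or 0.49 with the length slope removed (adjusted p = 0.00201). These genes have 2076 and 1946 bases, so they differ little in length.

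For L10 the log2 ratio of the chromosome 6 gene to the chromosome 8 gene was 0.52, 0.49 and 0.48 in CR, against -0.09, -0.09 and -0.08 in NC, with very little spread within each clone. For histone H4 the ratio of the chromosome 6 gene at 23183579 to the chromosome 2 gene was -0.46, -0.23 and -0.41 in CR, against 0.33, 0.67 and 0.47 in NC. These 2 genes are almost equal in length, at 459 and 455 bases. The other pairs that did not overlap were histone H4 on chromosome 6 (-0.58 between the clones), S15a-1 (-0.35), S15-4 (-0.33) and L26-1 (0.32). The sources used here do not say how reads that match both genes were assigned, so the values of same-named genes are uncertain.

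**Figure D4:**
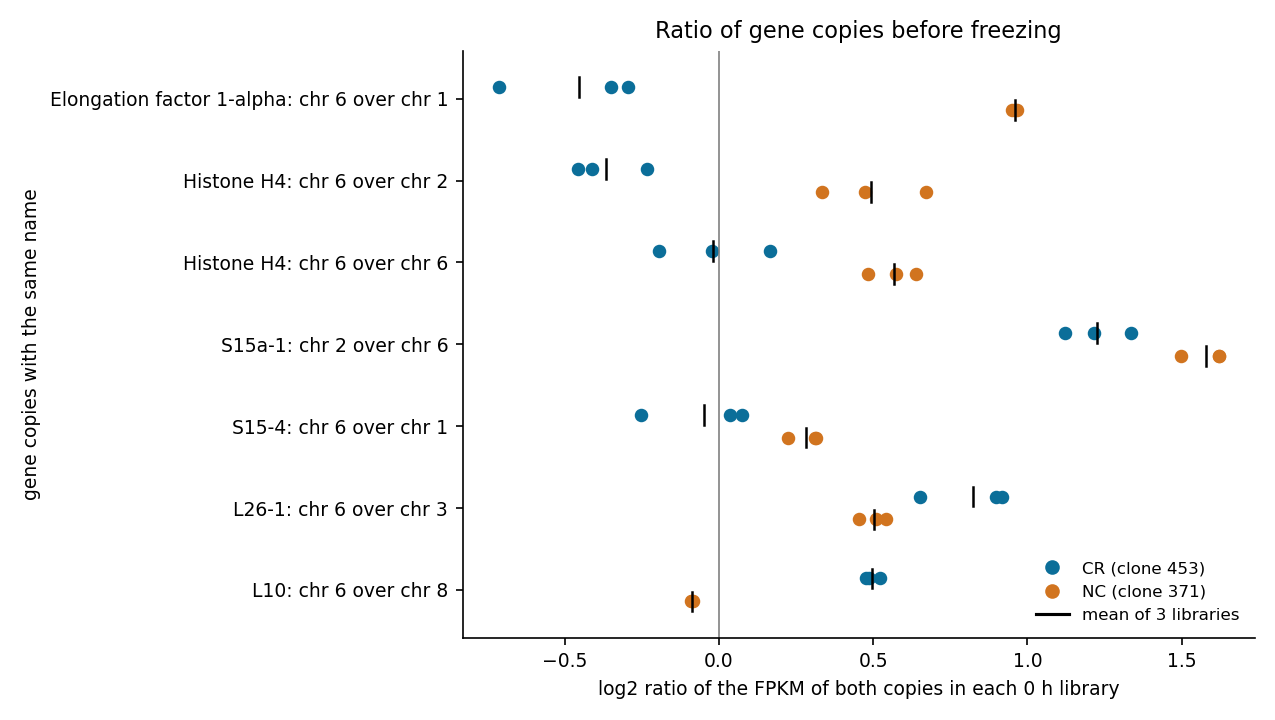
Log2 ratio of the FPKM of same-named genes in each 0 h library, for the 7 pairs whose CR and NC libraries do not overlap, with CR above NC in each row and black bars for the mean of 3 libraries. EF1-alpha, histone H4 of chromosome 6 over chromosome 2, and L10 have opposite signs in CR and NC, and L10 has 0.48 to 0.52 in CR and -0.09 to -0.08 in NC.

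The later libraries of the same clones gave a second set of differences, from other FPKM values, although all 30 libraries shared 1 estimate of the spread in limma. A fit of the 0 h libraries alone called 102 genes on the log2 scale, against 107. Averaged over the 4 later times 123 genes passed (86.0%), 113 as higher in CR and 10 as lower, and the median gene had 0.39. On the relative scale 89 passed (62.2%), 58 as higher (40.6%) and 31 as lower (21.7%). Of the 101 genes higher at 0 h, 95 were also higher later, where 79.0% of all genes were, and all 6 genes lower at 0 h were lower later, where 6.99% of all genes were. The relative counts were 44 of 53 and 22 of 39, with 1 gene called in opposite directions. Across the 143 genes the 2 sets of differences had a Pearson r of 0.83, as a description of genes that share their length and their clones. The number of genes called on the log2 scale was 107 before freezing, 21 (14.7%) after 15 min, 66 (46.2%) after 30 min, 68 (47.6%) after 1 h and 129 (90.2%) after 2 h, so the fewest were called after 15 min.

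In the order of the later times, AED3 averaged 726 ± 44.1, 663 ± 31.3, 699.7 ± 30.0 and 659 ± 17.8 FPKM in CR, against 1464 ± 114, 1256 ± 160, 1465 ± 97.3 and 998 ± 188 FPKM in NC (SD, n = 3 each). The highest later CR library, 764 FPKM, lay under the lowest later NC library, 780 FPKM. PIP2-5 ranged from 570 to 937 FPKM in the later CR libraries and from 1019 to 1356 FPKM in the later NC libraries. These did not overlap, nor did those of the decarboxylase gene on chromosome 3 (456 to 568 FPKM in CR and 692 to 1060 FPKM in NC). Its mean later difference was -0.67, against -0.31 for the decarboxylase gene on chromosome 1, and both passed. The log2 ratio of these 2 genes ran from -0.26 to 0.02 in the later CR libraries and from -0.23 to 1.26 in the later NC libraries. Adenosylhomocysteinase did overlap later (684 to 872 FPKM in CR and 738 to 1096 FPKM in NC), although its mean difference passed (-0.26, limma adjusted p = 5.3e-05). The L10 ratio lay between 0.32 and 0.63 in the later CR libraries and between -0.12 and 0.18 in the later NC libraries. The histone H4 ratio of chromosome 6 to chromosome 2 was likewise apart, at -0.56 to -0.19 in CR and 0.33 to 0.76 in NC. The EF1-alpha ratio was not, at -0.75 to 0.76 in CR and -0.01 to 0.92 in NC.

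The difference of the 0 h and later clone differences was itself tested. On the log2 scale 10 genes passed (6.99%), 9 with a higher value at 0 h (6.29%) and 1, adenosylhomocysteinase, with a lower one (0.699%, a difference of -0.43, SE 0.12, limma adjusted p = 0.0228). The count moved with single libraries, since limma called 0 genes without CR_0h replicate 1 (14 at an unadjusted p under 0.05), 48 without CR_0h replicate 2, 1 without NC_0h replicate 2 and 4 without NC_0h replicate 3. Adenosylhomocysteinase still had -0.39 without CR_0h replicate 1, and the ATP synthase 6 kDa subunit had 0.52, against 0.70 with it. On the relative scale 38 genes passed (26.6%), 16 with a higher (11.2%) and 22 with a lower value at 0 h (15.4%), and 14 without CR_0h replicate 1 or 13 with the length slope removed. The ATP synthase 6 kDa subunit (0.52 relative, adjusted p = 0.00152), histone H1.2 (0.46, adjusted p = 0.00152) and adenosylhomocysteinase (-0.60, adjusted p = 0.00175) passed in the relative test under both of these settings too, as did L3, P0 and S21-2. For most genes, then, no difference between 0 h and later was detected at this number of libraries, which does not show that the clone differences were equal.

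**Figure D5:**
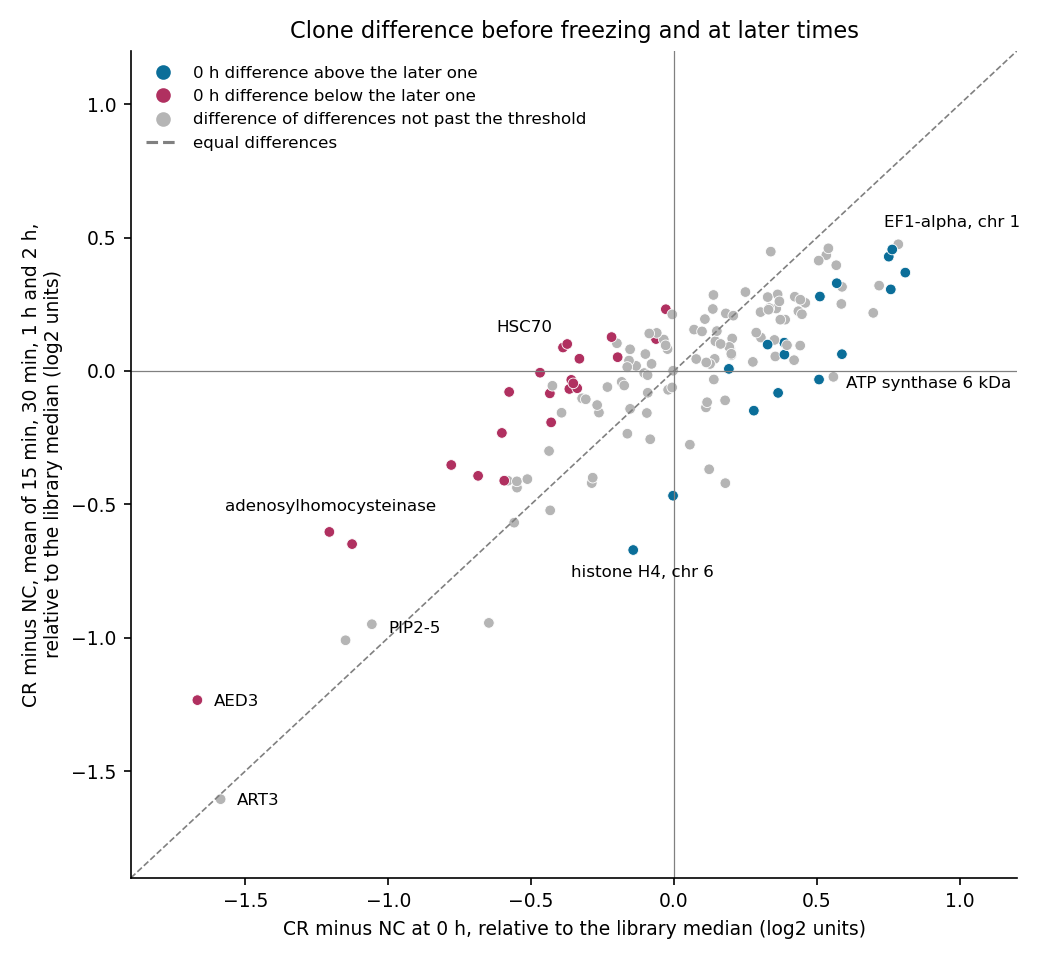
Difference between the clones relative to the library median (CR minus NC, log2 units) at 0 h on the horizontal axis and as the mean of 15 min, 30 min, 1 h and 2 h on the vertical axis, 1 point per gene for 143 genes, coloured where the limma test of the difference between both passed, with a dashed line at equal differences. AED3 and ART3 lie lowest at 0 h (-1.67 and -1.59) and later (-1.23 and -1.61), and EF1-alpha on chromosome 1 is highest at 0 h (0.81).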

How the data were processed

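RNA-seq libraries of 2 clones at 5 times were used through 1 deposited table. Its values are FPKM as deposited by the authors, with gene length and position. HISAT2, Picard, SAMtools 0.1.18 and GATK appear in the submitters' processing notes, while the sources used here name neither the build, nor the annotation, nor the program that counted reads. Of 144 genes, 1 with missing values was left out. FPKM multiplied by gene length and by 1 divisor per library, found from the values, gave whole reads for 4290 of 4290 values (tolerance 1e-06).

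Differences are CR minus NC of log2(FPKM + 1), or of the same values minus the library median, from limma 3.58.1 (R 4.3.3) with group means for all 30 libraries, a mean-variance trend and Benjamini-Hochberg adjustment over all 143 genes (threshold 0.05). On this scale a fold change is slightly understated. A filter of FPKM at least 1 in 3 libraries removed 0 genes. P-values measure the spread between libraries, which may be technical. The length slope was the line of each library's deviations from the gene means on log2 gene length. Scripts were tested on simulated data. Alternatives covered the pseudocount, filter, trend, block, length, centring, weights on reads, the libraries fitted and libraries left out.

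Genes named are the 10 highest and 10 lowest called differences on each scale, members of lists of 9 or fewer, and the 5 highest and 5 lowest called values of 0 h minus later. The other histones, the ribosomal proteins not called, the genes of pairs, P0, S21-2, nucleoside diphosphate kinase 1 and the unnamed genes were chosen after their values were seen. The comparison and gene lists were chosen with earlier results of these data known.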

Additional observations from a re-analysis of the deposited data

Results flagged for a closer look

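The difference between the clones at 0 h departed from the mean difference at the later times, by the limma test of that change, for 10 genes on the log2 scale and 38 relative to the library median. The genes with the most extreme changes are given here, as the 0 h difference minus the later one.

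On the log2 scale translation machinery-associated protein 7 had a change of 0.71 (adjusted p = 0.0228), the ATP synthase 6 kDa subunit 0.70 (0.00446), histone H1.2 0.64 (0.0149), ubiquitin-like protein 5 0.63 (0.00595) and thioredoxin H-type 0.62 (0.0228). Adenosylhomocysteinase had -0.43 (0.0228). Without CR_0h replicate 1 limma called none of these (adjusted p from 0.0541 to 0.226), with changes of 0.45 to 0.56 and, for adenosylhomocysteinase, -0.39, and 14 genes had an unadjusted p under 0.05.

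Relative to the library median the changes above 0 were 0.54 for translation machinery-associated protein 7 (adjusted p = 0.0252), 0.53 for histone H4 at 23183579 on chromosome 6 (0.0118), 0.52 for the ATP synthase 6 kDa subunit (0.00152), 0.46 for histone H1.2 (0.00152) and 0.45 for ubiquitin-like protein 5 (0.00757). Those under 0 were -0.60 for adenosylhomocysteinase (0.00175), -0.50 for heat shock protein 90-2 (0.00152), -0.48 for tubulin alpha (0.00542), -0.48 for S-adenosylmethionine decarboxylase on chromosome 1 (0.00694) and -0.47 for heat shock cognate 70 kDa protein (0.00775). Without CR_0h replicate 1, histone H4 (0.0793), the decarboxylase (0.0551) and translation machinery-associated protein 7 (0.0793) did not pass. Of the genes in this paragraph, only the ATP synthase 6 kDa subunit, histone H1.2 and adenosylhomocysteinase passed both there and with the length slope removed. With that slope removed tubulin alpha, for example, had -0.25 (limma adjusted p = 0.11) and histone H4 0.25 (0.228).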

How the results depend on the processing

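The 0 h calls numbered 107 on the log2 scale and 88 to 112 with 1 library left out, and 92 and 82 to 91 relative to the median. With the length slope removed 61 genes were called relative to the median. The test of 0 h minus later gave 0 (without CR_0h replicate 1) to 48 genes (without CR_0h replicate 2), and relative to the median 14 (without CR_0h replicate 1) to 48 (without CR_30min replicate 1), or 13 with the length slope removed. The later calls numbered 121 to 126, or 83 to 93 relative to the median. The difference of the library medians ran from 0.398 to 0.613.

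Removing the length slope also turned the sign of single genes. On the log2 scale polyubiquitin had 0.46, fructose-bisphosphate aldolase 1 0.26, EF1-alpha on chromosome 6 0.49 and heat shock protein 90-2 0.64. Relative values were 0.017 for tubulin alpha, 0.0243 for tubulin beta-1, 0.23 for heat shock cognate 70 kDa protein, 0.0491 for PIP2-7, 0.0862 for heat shock protein 90-2 and 0.12 for L-ascorbate peroxidase. The cause was not tested. With the median taken outside the ribosomal genes 8 named genes were no longer called lower: PIP2-7, both tubulins, heat shock cognate 70 kDa protein, chlorophyll a-b binding protein 151, arabinogalactan protein 31, Olee1-like protein and L-ascorbate peroxidase.

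With the replicate block 109 genes were called at 0 h and 88 relative to the median, 11 and 38 for 0 h minus later, and 123 and 90 later. Libraries of the same number had correlations of deviations of 0.32, -0.04 and 0.27, so the numbers were not taken to pair the libraries. A fit of the 0 h libraries alone called 102 and 92 genes, and weights on reads gave 108 and 89. Counting error, at most 1.73% at 0 h, was small beside the spread of most genes between libraries. It was not small where libraries lay closest, such as PIP2-5 in NC at 0 h (SD 7.82 on a mean of 1246 FPKM). The 3 libraries per clone limit every statement. Centring and weights were not varied for the later tests.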

Other observations

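Some abundant genes outside the lists also differed between the clones at 0 h. Nucleoside diphosphate kinase 1, which balances nucleotide pools, was higher in CR by 0.72 (limma adjusted p = 2.15e-05), and still by 0.18 relative to the median with the length slope removed (adjusted p = 0.0208). Early nodulin-like protein 3 was higher by 0.51 (adjusted p = 0.00441), with a relative value of -0.01 that did not pass. Thiamine thiazole synthase, of vitamin B1 synthesis, had 0.18 and did not pass (adjusted p = 0.255), and was lower relative to the median (-0.34, adjusted p = 0.00213), but not with the length slope removed (-0.10, adjusted p = 0.405). Of the 6 genes without a name, 4 were higher on the log2 scale, with differences from 0.48 to 1.21. None of these 4 passed relative to the median with the length slope removed.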
